A study of Equus caballus with 17 samples.

Results

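The miR-17 seed family is a group of microRNAs (miRNAs) that share their seed, the bases near the 5′ end that pair with target transcripts. It was followed here in horse (Equus caballus) testis and sperm through 6 members, eca-miR-17, eca-miR-20a, eca-miR-20b, eca-miR-93, eca-miR-106a and eca-miR-106b, whose species prefix eca- is left out below. The members were chosen by name from an annotated table of 274 mature miRNAs. Each had 1 entry and 1 precursor, so all 6 of the family's named members were found and all 6 passed the filter on low counts in both fits. The libraries were testis of the labelled stages Infant (n = 3), Pre-puber (n = 3), Puber (n = 3) and Adult (n = 4), and Sperm (n = 4). No treatment, genotype, breed or age in years is given in the labels. The testis holds many cell types, and in such a tissue fewer cells of a type and less RNA per cell cannot be told apart. Per the labels, the DNase step was shorter for Sperm than for testis and phenol:chloroform was used for Sperm, so preparation and group cannot be told apart in comparisons of Sperm with testis.

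A mammalian miRNA is cut from a hairpin precursor and guides an Argonaute protein to transcripts that pair with its seed, lowering their translation and stability. Members of the miR-17 family are encoded in 3 related clusters, each transcribed as 1 long primary transcript: miR-17-92 (miR-17, miR-20a), miR-106a-363 (miR-106a, miR-20b), which is X-linked in human and mouse, and miR-106b-25 (miR-106b, miR-93), which lies in an intron of the Mcm7 gene in human and mouse. In mouse and human the family is best known for promoting proliferation, with cell cycle inhibitors and TGF-beta signalling components among its targets. In mouse testis, members of the family have been studied in spermatogonia, the dividing germ cells from which meiosis starts.

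In the RefSeq gene table used for gene names, from another horse assembly than that of the files, the same 3 clusters were present. MIR17 stood with MIR18A, MIR19A, MIR20A, MIR19B and MIR92A. MIR106A stood with MIR18B, MIR20B, MIR19B-2, MIR92A-2 and MIR363. MIR106B stood with MIR93 and MIR25. No other gene had its start within any of the 3 spans. A gene that starts outside a span and covers it, as a host gene would, was not looked for. Of the 7 other mature names of these clusters (miR-18a, miR-18b, miR-19a, miR-19b, miR-25, miR-92a and miR-363), miR-18a and miR-18b were in the table, and the other 5 are not analysed here.

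Mature sequences of the 6 members are not shown here. The table also held 1461 predicted hairpins with a sequence, and the family's 7-base seed, AAAGUGC, occurred in 6 of them (0.411%), at 2 to 202 counts over all 17 libraries. The 3 most abundant of these 6 are shown, as entries outside the 6 names that carry these letters, with the match in capitals. The third tied with another on chromosome 20 at 5 counts.
chr10:23263641-23263698, plus strand, EquCab3.0: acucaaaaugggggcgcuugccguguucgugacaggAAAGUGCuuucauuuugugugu
chr16:14486092-14486144, plus strand, EquCab3.0: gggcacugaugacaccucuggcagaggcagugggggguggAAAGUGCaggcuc
chr4:12807481-12807533, minus strand, EquCab3.0: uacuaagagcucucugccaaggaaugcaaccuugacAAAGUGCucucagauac
The hairpin on chromosome 10 had 2 counts in the Infant libraries together, 141 in the Pre-puber, 35 in the Puber, 18 in the Adult and 6 in the Sperm libraries. The hairpin on chromosome 16 had 34 counts, 31 of them in Adult. The hairpin on chromosome 4 had 5 counts. A match says only that these letters are in the hairpin, not that the mature product begins with them. These counts are small beside those of the members, which summed to between 12007 counts in Sperm 3 and 118408 in Adult 33.

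Total counts per library were 12.65 to 16.68 M (mega) in Infant, 10.97 to 17.93 M in Pre-puber, 5.326 to 7.859 M in Puber, 2.864 to 6.663 M in Adult and 1.936 to 3.161 M in Sperm, so depth moved with the group. The summed level of 3 miRNAs of meiotic and later germ cells (miR-34b-5p, miR-34c and miR-449a) was 11.15 to 21.67 RPM (the count divided by the library total, in reads per mega reads) in Infant, 36.98 to 2142 RPM in Pre-puber, 7893 to 20700 RPM in Puber, 33252 to 52190 RPM in Adult and 44110 to 177400 RPM in Sperm. Some libraries stood apart from their group. Pre-puber 14 had 2142 RPM of these germ cell miRNAs, against 36.98 and 53.7 RPM in the other Pre-puber libraries, and Sperm 2 had 177400 RPM, against 44110 to 56414 RPM in the other Sperm libraries. The 4 of 7 listed blood cell miRNAs in the table summed to 5201 RPM in Adult 33, against 786 to 1145 RPM in the other Adult libraries, and to 4111 RPM in Infant 30, against 437 and 629 RPM in the other Infant libraries. Where leaving out one of these libraries ended a call or gave one, or moved a fold by over 1.5 times, the value without it is given. The titles pair Infant 31a with 31b and Pre-puber 3a with 3b by number. The labels say neither that a shared number means 1 animal nor that any replicates are separate animals. The p-values therefore measure only the spread between these libraries.

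The 6 members fell into different patterns over the 5 groups, on the deposited RPM scale. miR-20b averaged 7.02 ± 4.67 RPM in Infant, 893 ± 1361 RPM in Pre-puber, 2386 ± 1001 RPM in Puber, 2969 ± 670 RPM in Adult and 3.84 ± 3.55 RPM in Sperm (SD, n = 3, 3, 3, 4 and 4). By mean RPM among the 274 annotated miRNAs it ranked 126th in Infant, 30th in Adult and 129th in Sperm. miR-93 averaged 220 ± 86.3 RPM in Infant, 757 ± 155 RPM in Pre-puber, 1330 ± 292 RPM in Puber, 2004 ± 228 RPM in Adult and 7333 ± 3962 RPM in Sperm, and ranked 67th, 36th and 20th in Infant, Adult and Sperm. miR-20b thus had a low mean in both Infant and Sperm, a pair of groups that was not tested, and miR-93 had its highest mean in Sperm.

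miR-17 averaged 115 ± 38.2 RPM in Infant, 1101 ± 1063 RPM in Pre-puber, 2144 ± 936 RPM in Puber, 2628 ± 1048 RPM in Adult and 823 ± 400 RPM in Sperm. miR-20a, from the same cluster, averaged 263 ± 36.9 RPM in Infant, 1230 ± 523 RPM in Pre-puber, 1447 ± 919 RPM in Puber, 1963 ± 906 RPM in Adult and 1831 ± 1214 RPM in Sperm. miR-106b had group means closer to each other, at 257 ± 151 RPM in Infant, 217 ± 8.60 RPM in Pre-puber, 169 ± 30.2 RPM in Puber, 300 ± 254 RPM in Adult and 338 ± 118 RPM in Sperm. The Adult mean of miR-106b included 1 library, Adult 33, at 671 RPM. That library was also the Adult library highest in blood cell miRNAs and in the summed stroma and smooth muscle miRNAs (3 of 6 listed). Infant 30, the Infant library highest in both lists, had the lowest miR-106b of the Infant libraries, at 123 RPM against 421 and 226 RPM. The part of either list in the level was not tested.

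**Figure D1:**
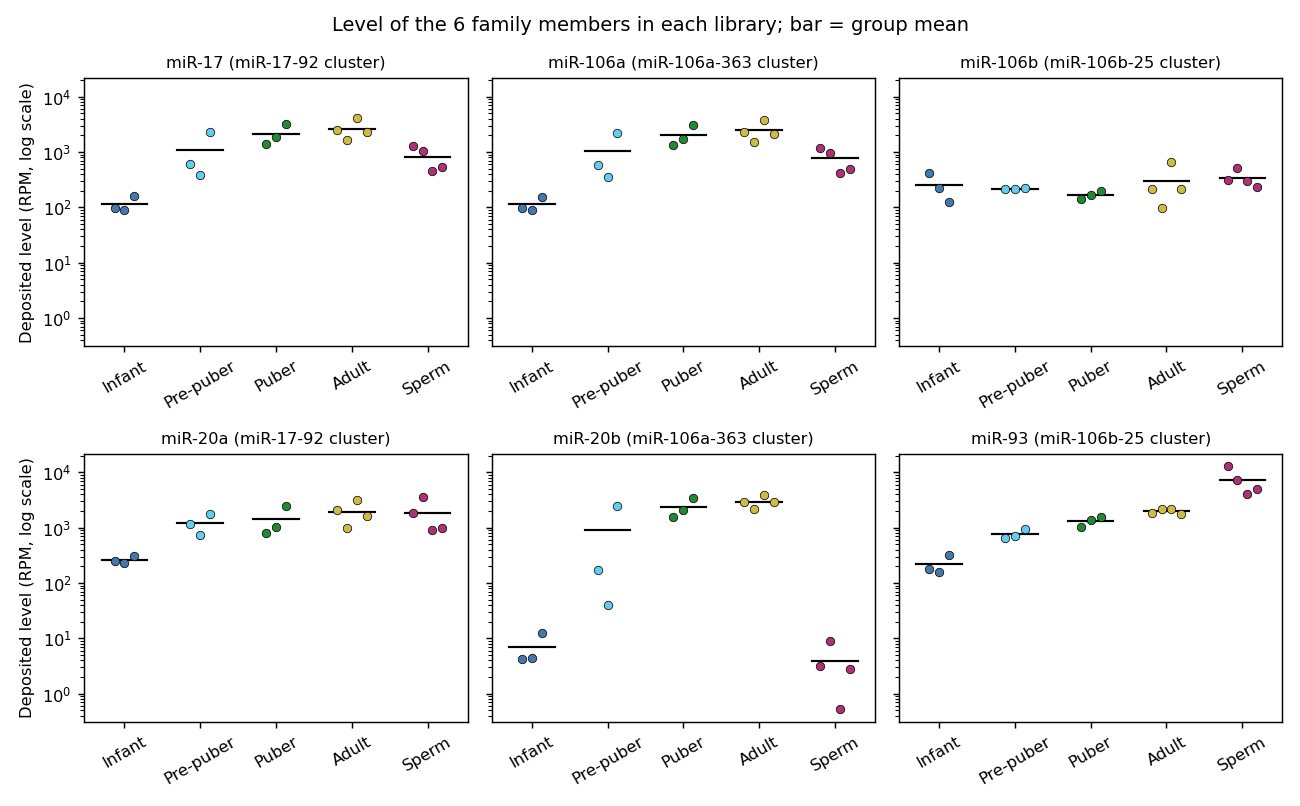
Deposited level of each of the 6 members (vertical axis, RPM on a log scale) in each library (points) of the 5 groups, with the group mean as a bar. miR-20b spans from 7.02 RPM in Infant to 2969 RPM in Adult and 3.84 RPM in Sperm, while miR-106b has group means between 169 and 338 RPM.

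The counts of miR-106a and miR-17 were nearly the same in every library. The ratio of miR-106a to miR-17 counts lay between 0.921 and 1.01 over the 17 libraries, with a median of 0.944. The ratio of miR-106a to its own cluster partner miR-20b ran from 0.698 in Adult 20 to 820 in Sperm 3. In Sperm, miR-20b had 10, 22, 1 and 6 counts in Sperm 1 to 4, beside 3804, 2426, 820 and 1046 counts of miR-106a. The counts of miR-106a thus stayed close to those of a member of another cluster in all 17 libraries, and far from those of its own cluster partner in the Infant and Sperm libraries. The mature products of miR-17 and miR-106a are closely similar in sequence in human and mouse. Whether reads of one were also counted under the other name was not tested, and miR-106a is treated below as uncertain, with no result resting on it alone. The same doubt holds for miR-17, whose counts may include reads of miR-106a. It applies to every level, fold change, share and correlation of miR-17 below, also where miR-17 is set beside miR-20a or miR-20b. The shares of the other members below carry the same doubt, since their total includes miR-17 and leaves out miR-106a.

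**Figure D2:**
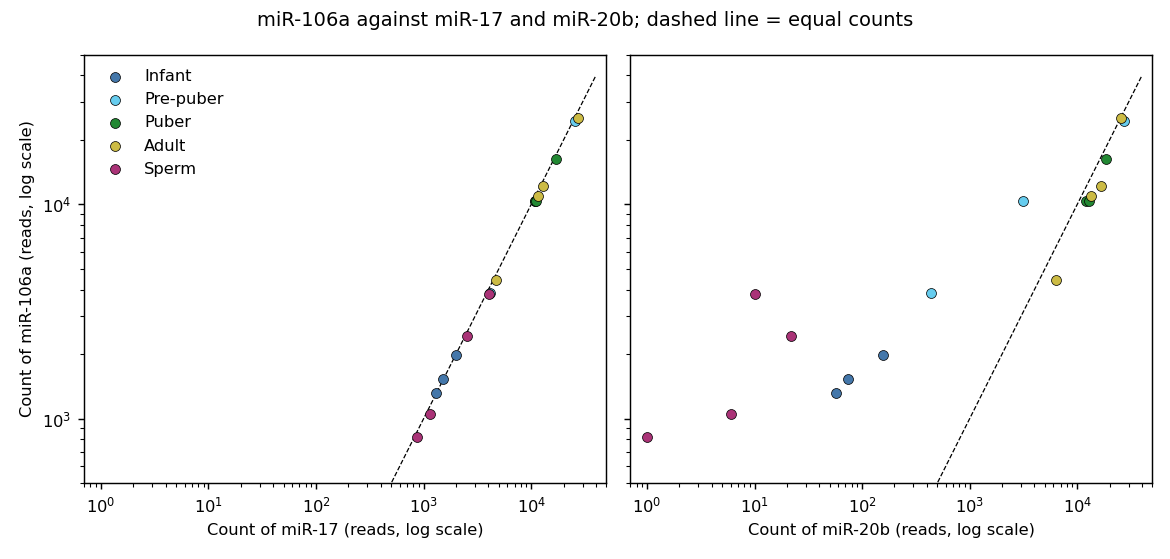
Count of miR-106a in each of the 17 libraries (vertical axis, reads on a log scale) against the count of miR-17 (left) and of miR-20b (right), with the dashed line marking equal counts. All points lie close to the line for miR-17, with ratios of 0.921 to 1.01, and the Infant and Sperm points lie far from it for miR-20b.

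The first comparison asked what changed between Pre-puber and Infant testis. All members but miR-106b were higher in Pre-puber testis, miR-20b by the largest fold of the 6. Levels here and below are CPM of the annotated miRNA counts after TMM scaling, called scaled CPM, and were tested with edgeR's quasi-likelihood test at a Benjamini-Hochberg adjusted p under 0.05 over all miRNAs tested. miR-20b stood at 213, 59.4 and 3788 scaled CPM in Pre-puber 3a, 3b and 14, against 10.3, 8.83 and 19.6 in Infant 31a, 31b and 30. The groups did not overlap, but the Pre-puber level differed many-fold among its own libraries. The log2 fold change was 6.71 ± 1.26 (SE, edgeR adjusted p = 0.0026), and 3.43 without Pre-puber 14 or 7.29 without Pre-puber 3b, both still called.

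miR-17 stood at 731, 564 and 3571 scaled CPM in Pre-puber 3a, 3b and 14, against 235, 180 and 252 in Infant 31a, 31b and 30. Its log2 fold change was 2.87 ± 0.60 (edgeR adjusted p = 0.00559), and 1.56 without Pre-puber 14, still called. The library highest in miR-17 and miR-20b was thus also the Pre-puber library highest in the germ cell miRNAs. It was highest too in endothelial miR-126-5p, at 403 RPM against 190 and 94.7 RPM, and in the blood cell miRNAs, at 1788 RPM against 1381 and 649 RPM. It was lowest in the summed stroma and smooth muscle miRNAs (3 of 6 listed), at 20478 RPM against 27332 and 25263 RPM. The part of cell content in the levels of miR-17 and miR-20b was not tested. miR-20a stood at 1404, 1113 and 2743 scaled CPM in Pre-puber 3a, 3b and 14, against 618, 462 and 481 in Infant, a log2 fold change of 1.75 ± 0.43 (edgeR adjusted p = 0.00996). miR-93 rose by 1.36 ± 0.33 on the log2 scale (edgeR adjusted p = 0.00989), with 773 to 1434 scaled CPM in Pre-puber libraries against 319 to 505 in Infant libraries.

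Together 5 of the 6 members were higher in Pre-puber than in Infant testis and none lower (4 of 5 with miR-17 and miR-106a counted once), beside 15.8% of all 184 tested miRNAs called higher and 23.9% called in either direction. The fifth was miR-106a, with a log2 fold change of 2.80 ± 0.61 (edgeR adjusted p = 0.00579), and 1.48 without Pre-puber 14, still called. The median log2 fold change was 2.28 over the 6 members, 1.75 without miR-106a and 0.16 over all tested miRNAs. miR-106b did not pass the test (log2 fold change -0.86 ± 0.60, edgeR adjusted p = 0.330). When the Pre-puber and Infant libraries were fitted alone, the calls of miR-106a (adjusted p = 0.0522) and miR-93 (adjusted p = 0.0546) were lost, leaving 3 members. In that fit 26 of 168 tested miRNAs were called (15.5%), 15 of them higher.

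Between Puber and Pre-puber testis none of the 6 members passed edgeR's test, beside 1.09% of all 184 tested miRNAs, none of the 6 had an unadjusted p under 0.05, and DESeq2 and limma-voom called 0 of the 6. Over all 184, 34 had an unadjusted p under 0.05, DESeq2 called 16 and limma-voom 19. miR-20b stood at 2337, 2749 and 3556 scaled CPM in Puber 10, 11 and 19, against 213, 59.4 and 3788 in Pre-puber 3a, 3b and 14. Only Pre-puber 14 brought the groups into overlap. Without Pre-puber 14, miR-20b (log2 fold change 4.41), miR-17 (2.01) and miR-106a (2.01) were called higher in Puber, beside 30 of all 184 tested miRNAs called (16.3%), 24 of them higher. Between Adult and Puber testis none of the 6 members passed edgeR's test, and neither did any of the 184 tested miRNAs (0%). In that comparison 34 of the 184 had an unadjusted p under 0.05, DESeq2 called 10 and limma-voom called 0. Member log2 fold changes lay between 0.03 for miR-106a and 0.48 ± 0.56 (SE) for miR-106b.

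Adult and Infant testis are the last and first of the 4 stages. miR-20b stood at 2774, 3049, 3551 and 2860 scaled CPM in Adult 13, 20, 33 and 4, against 10.3, 8.83 and 19.6 in Infant 31a, 31b and 30. The groups were far apart relative to the spread within either of them. The log2 fold change was 7.88 ± 1.31 (SE, edgeR adjusted p = 0.000291), a 236-fold higher level in Adult. miR-17 stood at 2391, 2264, 3791 and 2220 scaled CPM in Adult 13, 20, 33 and 4, against 235, 180 and 252 in Infant, a log2 fold change of 3.58 ± 0.61 (edgeR adjusted p = 0.000329). It was 4.55 without scaling beyond the library total and 1.86 with predicted hairpins included in the fit, both still called. Its cluster partner miR-20a stood at 2015, 1383, 2906 and 1565 scaled CPM in Adult, against 618, 462 and 481 in Infant, a smaller log2 fold change of 1.92 ± 0.42 (edgeR adjusted p = 0.00182).

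In the miR-106b-25 cluster, miR-93 stood at 1753, 3053, 2010 and 1752 scaled CPM in Adult 13, 20, 33 and 4, against 440, 319 and 505 in Infant 31a, 31b and 30. It rose by 2.35 ± 0.33 on the log2 scale (edgeR adjusted p = 0.000147), and every Adult library lay above every Infant library. miR-106b stood at 208, 135, 619 and 209 scaled CPM in Adult 13, 20, 33 and 4, against 1024, 450 and 194 in Infant. Its groups overlapped, and its log2 fold change of -0.92 ± 0.55 did not pass (edgeR adjusted p = 0.173). Without Adult 33 it was -1.77 and passed (adjusted p = 0.0264), with predicted hairpins included it was -2.48 and passed (adjusted p = 0.00119), and without scaling beyond the library total it was 0.25. No direction is therefore given for miR-106b.

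In all, 5 of the 6 members were higher in Adult than in Infant testis and none lower (4 of 5 without miR-106a), beside 26.1% of all tested miRNAs called higher and 51.6% called in either direction. miR-106a, the fifth, had a log2 fold change of 3.49 ± 0.61 (edgeR adjusted p = 0.000409), 4.45 without scaling and 1.76 with predicted hairpins included, both still called. The median log2 fold change was 2.92 over the members, 2.35 without miR-106a and -0.14 over all tested miRNAs. Without scaling, the median of all tested miRNAs was 0.82 in place of -0.14 and the split of higher against lower calls was 84 to 21 in place of 48 to 47. The same 5 members were called higher in Puber than in Infant testis, beside 21.2% of all tested miRNAs called higher and 36.4% in either direction. There miR-20b rose by 7.80 ± 1.32 on the log2 scale (edgeR adjusted p = 0.000749) and miR-93 by 1.97 ± 0.33 (adjusted p = 0.000749). miR-106b did not pass there (log2 fold change -1.40 ± 0.60, adjusted p = 0.0860), but passed without Infant 30 (-1.81), without Adult 33 (-1.77), with upper-quartile scaling (-1.78, adjusted p = 0.0338), with no filter (-1.78, adjusted p = 0.0371) and with predicted hairpins included (-2.75, adjusted p = 0.00151). miR-17 was higher in Puber by 4.19 on the log2 scale without scaling and by 2.06 with predicted hairpins included, both still called. With predicted hairpins included in the fit, miR-20a and miR-93 lost their calls against Infant, at log2 fold changes of 0.18 and 0.61 in Adult and 0.21 and 0.53 in Puber. These comparisons with Infant share the Infant libraries. Over the 4 testis stages, edgeR's F test called 5 of 6 members, beside 47.8% of all tested miRNAs, with miR-106b again the exception (adjusted p = 0.209).

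The germ cell miRNAs were also higher in the later stages, at 33252 to 52190 RPM in Adult against 11.15 to 21.67 RPM in Infant. The 3 miRNAs of the stroma and smooth muscle list in the table, out of 6 listed, summed to 10900 to 20393 RPM in Adult and 16244 to 26228 RPM in Infant. They did not move together. miR-145 averaged 5324 RPM in Adult and 1924 RPM in Infant. Lower means in Adult were those of miR-199a-5p (9242 against 15074 RPM) and miR-199b-5p (1714 against 4172 RPM). The blood cell miRNAs summed to 786 to 5201 RPM in Adult and 437 to 4111 RPM in Infant. Of these, miR-150 had a lower mean in Adult (82.2 against 185 RPM), and miR-142-5p, miR-451 and miR-486-5p had higher means. The 1 of 2 endothelial miRNAs, miR-126-5p, stood at 234 to 632 RPM in Adult and 137 to 174 RPM in Infant. The 5 epithelial miRNAs listed are not analysed here. The part of cell composition in the members' differences was not tested.

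**Figure D3:**
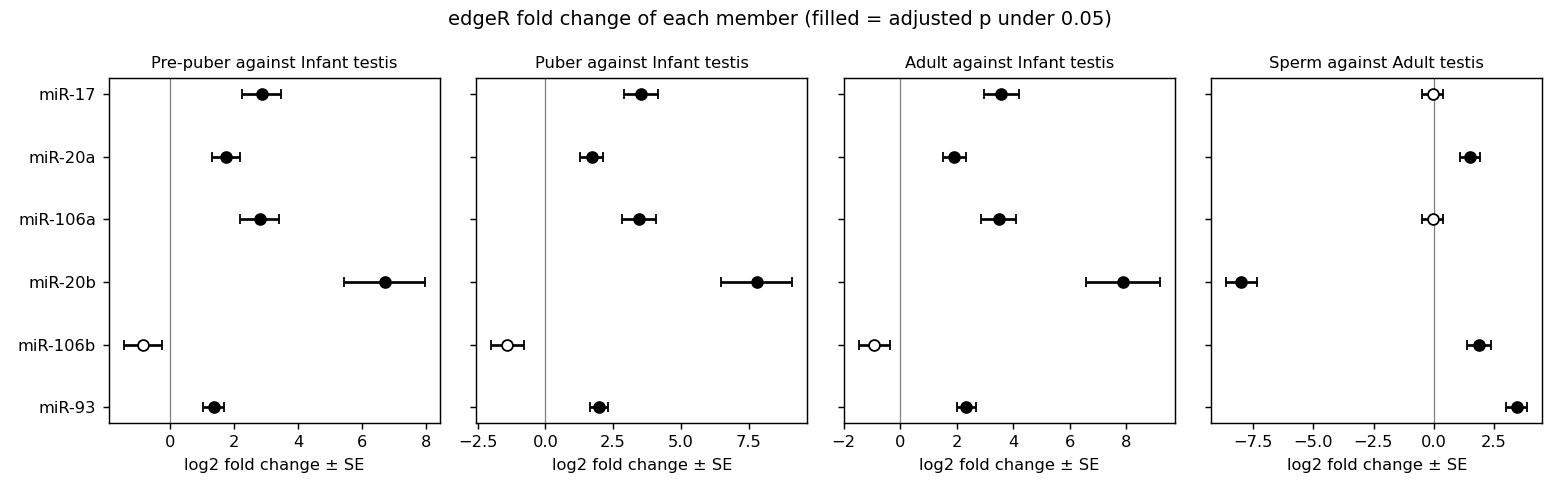
Log2 fold change with its SE (horizontal axis) of each member in 4 comparisons from edgeR, with filled points for an adjusted p under 0.05. The 3 testis comparisons have 5 filled points to the right of 0 and miR-106b open. In Sperm against Adult testis miR-20b lies at -7.99 and miR-93 at 3.45.

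Sperm were compared with Adult testis in a separate fit of their 8 libraries, so Adult levels differ from those above. miR-20b stood at 7.31, 18.0, 1.23 and 7.94 scaled CPM in Sperm 1 to 4, against 2141, 2055, 2410 and 2468 in Adult 13, 20, 33 and 4. In counts these were 39 reads over the 4 Sperm libraries and 62169 over the 4 Adult libraries. It fell by 7.99 ± 0.63 on the log2 scale (SE, edgeR adjusted p = 3.8e-17), and its log2 fold change was -8.66 without Sperm 2. miR-93 stood at 29804, 14968, 9808 and 13963 scaled CPM in Sperm 1 to 4, against 1353, 2058, 1364 and 1512 in Adult 13, 20, 33 and 4. It rose by 3.45 ± 0.44 on the log2 scale (edgeR adjusted p = 4.9e-10), with no overlap between the groups. These 2 members, from different clusters, moved in opposite directions, with every Sperm library outside the Adult range. The groups did not overlap for miR-106b and miR-20a either. The share of all tested miRNAs without overlap was not counted, and 81.5% of them were called in this comparison.

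miR-106b stood at 708, 1030, 715 and 672 scaled CPM in Sperm 1 to 4, against 160, 91.2, 420 and 180 in Adult 13, 20, 33 and 4, a log2 fold change of 1.87 ± 0.49 (edgeR adjusted p = 0.000505). miR-20a stood at 4337, 7158, 2194 and 2820 scaled CPM in Sperm, against 1556, 932, 1972 and 1351 in Adult, a log2 fold change of 1.51 ± 0.44 (edgeR adjusted p = 0.00139). Both calls were lost without Adult 20, with log2 fold changes of 1.00 for miR-106b (adjusted p = 0.0933) and 0.78 for miR-20a (adjusted p = 0.128). With predicted hairpins in the fit they were 0.69 and 0.53, neither called, and with DESeq2 miR-20a was 0.83 (adjusted p = 0.0549). miR-17 stood at 2959, 2090, 1066 and 1503 scaled CPM in Sperm, against 1846, 1526, 2572 and 1916 in Adult. Its groups overlapped, and neither it (log2 fold change -0.04 ± 0.43, edgeR adjusted p = 0.928) nor miR-106a (-0.04 ± 0.43, adjusted p = 0.932) passed the test.

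Thus 4 of the 6 members passed the test between Sperm and Adult testis, 3 higher and 1 lower (the same 4 of 5 without miR-106a), beside 81.5% of all 162 tested miRNAs called, 42% higher and 39.5% lower. The members' share called was not above that of all tested miRNAs. The calls of miR-20b and miR-93 held under every scaling tried, and those of miR-20a and miR-106b did not. miR-17 and miR-106a, not called above, were called without scaling. TMM factors were 0.484 to 0.639 in Sperm and 1.42 to 2.30 in Adult, and without scaling the median log2 fold change of all tested miRNAs was -1.61 in place of 0.06. Without scaling, miR-20b stood at -9.61 and miR-93 at 1.85, both still called. Under that setting miR-20a stood at -0.16 and miR-106b at 0.10, neither called, and miR-17 (-1.72) and miR-106a (-1.71) were called lower. The split of higher against lower calls over all miRNAs was then 36 to 86 in place of 68 to 64.

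The stroma and smooth muscle miRNAs summed to 23.9 to 75.0 RPM in Sperm, against 10900 to 20393 RPM in Adult. Of these, miR-145 had 44 counts over the Sperm libraries and 114701 over the Adult libraries, beside 39 and 62169 of miR-20b. miR-199a-5p had 220 and 194689 counts, and miR-199b-5p had 162 and 33756. In Infant, miR-145 averaged 1924 RPM and miR-20b 7.02 RPM. The blood cell miRNAs summed to 635 to 1580 RPM in Sperm and 786 to 5201 RPM in Adult, and they did not move together. miR-451 had a higher mean in Sperm (636 against 344 RPM). Lower means in Sperm were those of miR-142-5p (81.8 against 253 RPM), miR-150 (14.0 against 82.2 RPM) and miR-486-5p (538 against 1378 RPM). miR-126-5p stood at 16.0 to 19.4 RPM in Sperm and 234 to 632 RPM in Adult. The germ cell miRNAs summed to 44110 to 177400 RPM in Sperm and 33252 to 52190 RPM in Adult. The part of somatic cells in the testis level of any member was not tested.

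Ratios of members within a library do not depend on the scaling, and compare single members of the clusters, not whole clusters. Each was taken as the log2 ratio of counts with 0.5 added to each, through which a ratio of few counts still depends on depth, and tested by an exact two-sided permutation test with Benjamini-Hochberg adjustment over 10 tests, in which the smallest possible p is 0.0286. miR-20b over miR-20a sets a member of miR-106a-363 against a member of miR-17-92. Its log2 ratio averaged 0.69 ± 0.39 in Adult and -5.40 ± 0.69 in Infant (SD, n = 4 and 3), a difference of 6.09 (exact permutation p = 0.0286, adjusted p = 0.0408). In plain numbers there were 1.22 to 2.20 reads of miR-20b for each read of miR-20a in Adult libraries, against 0.0166 to 0.0408 in Infant libraries. In Sperm there were 0.000561 to 0.00282, and the log2 ratio of -9.08 ± 0.82 (SD, n = 4) differed from that of Adult by -9.77 (exact permutation p = 0.0286, adjusted p = 0.0408). The Pre-puber ratios were 0.151 in Pre-puber 3a, 0.0534 in 3b and 1.38 in 14, the last within the Adult range and the others between the Infant and Adult ranges.

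miR-106b over miR-20a sets a member of miR-106b-25 against a member of miR-17-92. Its log2 ratio averaged -2.94 ± 0.51 in Adult and -0.21 ± 1.03 in Infant (SD, n = 4 and 3), a difference of -2.74 (exact permutation p = 0.0286, adjusted p = 0.0408). In plain numbers there were 0.0978 to 0.213 reads of miR-106b for each read of miR-20a in Adult, against 0.404 to 1.66 in Infant. So miR-106b was lower relative to miR-20a in every Adult library than in any Infant library, though its own scaled level had no stable direction. The other member of miR-106b-25, miR-93, was not tested against miR-20a. It had 2442, 2675 and 4035 counts in Infant 31a, 31b and 30, beside 3432, 3870 and 3845 of miR-20a. In Adult 13, 20, 33 and 4 it had 8492, 6366, 14517 and 10250, beside 9764, 2884, 20987 and 9154. The miR-106b ratio therefore does not stand for the whole cluster. In Sperm the log2 ratio of miR-106b over miR-20a, at -2.27 ± 0.54, differed from Adult by 0.67 with overlapping groups (exact permutation p = 0.114, adjusted p = 0.114). miR-93 had 40774, 18311, 7960 and 10553 counts in Sperm 1 to 4, beside 5933, 8757, 1781 and 2131 of miR-20a. For each read of miR-106b there were 5.73 to 22.5 reads of miR-20b in Adult against 0.0100 to 0.101 in Infant, a log2 difference of 8.83 (exact permutation p = 0.0286, adjusted p = 0.0408). In Sperm the same ratio was 0.00172 to 0.0175, a log2 difference of -10.4 from Adult (exact permutation p = 0.0286, adjusted p = 0.0408). With 5 added to each count, the differences between Sperm and Adult were -8.89 for miR-20b over miR-20a and -9.55 for miR-20b over miR-106b, both still called.

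Members of 1 cluster did not keep a fixed ratio either. There were 1.19 to 1.64 reads of miR-17 for each read of miR-20a in Adult, against 0.380 to 0.524 in Infant, a log2 difference of 1.69 (exact permutation p = 0.0286, adjusted p = 0.0408). In Sperm there were 0.292 to 0.682, a log2 difference of -1.53 from Adult (exact permutation p = 0.0286, adjusted p = 0.0408). So miR-17 outnumbered miR-20a in all Adult libraries, and miR-20a outnumbered miR-17 in all Infant and Sperm libraries. Counts of miR-17 may include reads of miR-106a, as described above, and their part in this ratio was not tested. miR-93 over miR-106b stood at 3.25 to 22.6 in Adult against 0.429 to 2.60 in Infant. The groups did not overlap, but the log2 difference of 3.20 did not pass (exact permutation p = 0.0571, adjusted p = 0.0714). In Sperm that ratio was 13.7 to 42.1 and overlapped with Adult (log2 difference 1.27, exact permutation p = 0.114, adjusted p = 0.114).

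The permutation tests can just reach the threshold at these group sizes. When any 1 Infant or Adult library was left out, or Infant 31a and 31b were summed, the 4 differences called between Adult and Infant kept their direction and lost the call. Over those settings they ranged from 5.84 to 6.49 for miR-20b over miR-20a, from -3.29 to -2.27 for miR-106b over miR-20a, from 8.11 to 9.78 for miR-20b over miR-106b and from 1.61 to 1.84 for miR-17 over miR-20a. When any 1 Adult library was left out, the 3 differences called between Sperm and Adult also kept their direction and lost the call, with adjusted p between 0.0714 and 0.0952. Their unadjusted exact permutation p stayed at 0.0286, and the adjustment also covers the tests of Adult against Infant. When any 1 Sperm library was left out, these 3 differences stayed called (exact permutation test, adjusted p = 0.0408).

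**Figure D4:**
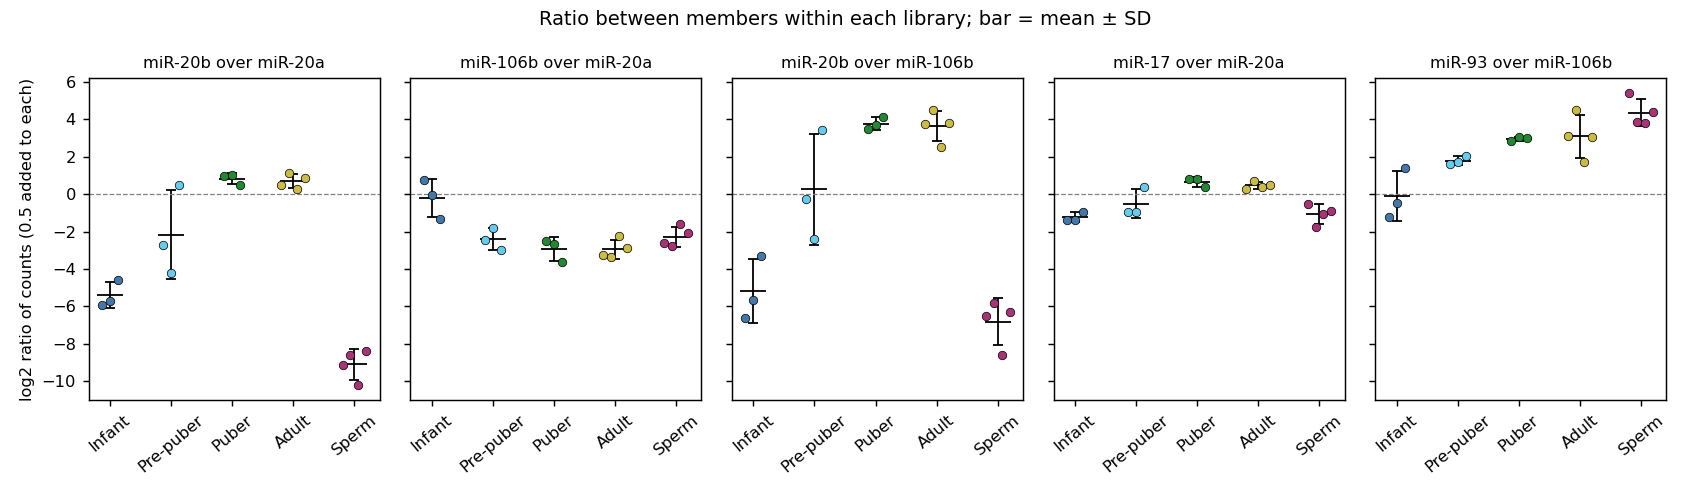
Log2 ratio of counts between 2 members within each library (vertical axis, 0.5 added to each count; points) for 5 pairs over the 5 groups, with bars for the mean and SD. miR-20b over miR-20a has a mean of -5.40 in Infant, 0.69 in Adult and -9.08 in Sperm, and Pre-puber 14 lies within the Adult range.

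The ratios amount to a change in the make-up of the family. Of the counts of the 5 members other than miR-106a, miR-20b held 0.805 ± 0.483% in Infant libraries, 13.4 ± 16.2% in Pre-puber libraries, 31.9 ± 0.374% in Puber libraries, 30.5 ± 2.32% in Adult libraries and 0.0353 ± 0.0276% in Sperm libraries (SD, n = 3, 3, 3, 4 and 4). miR-106b held 29.7 ± 15.4% in Infant libraries, 6.91 ± 3.71% in Pre-puber libraries, 2.41 ± 0.533% in Puber libraries, 2.72 ± 1.47% in Adult libraries and 3.67 ± 1.38% in Sperm libraries. miR-93 held 25.4 ± 8.32% in Infant libraries, 22.9 ± 10.8% in Pre-puber libraries, 18.8 ± 3.70% in Puber libraries, 21.5 ± 6.57% in Adult libraries and 70.7 ± 8.28% in Sperm libraries. The miR-20b share of Pre-puber 14, at 31.9%, lay within the range of the Puber libraries, and Pre-puber 3a and 3b had 6.30% and 1.92%.

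**Figure D5:**
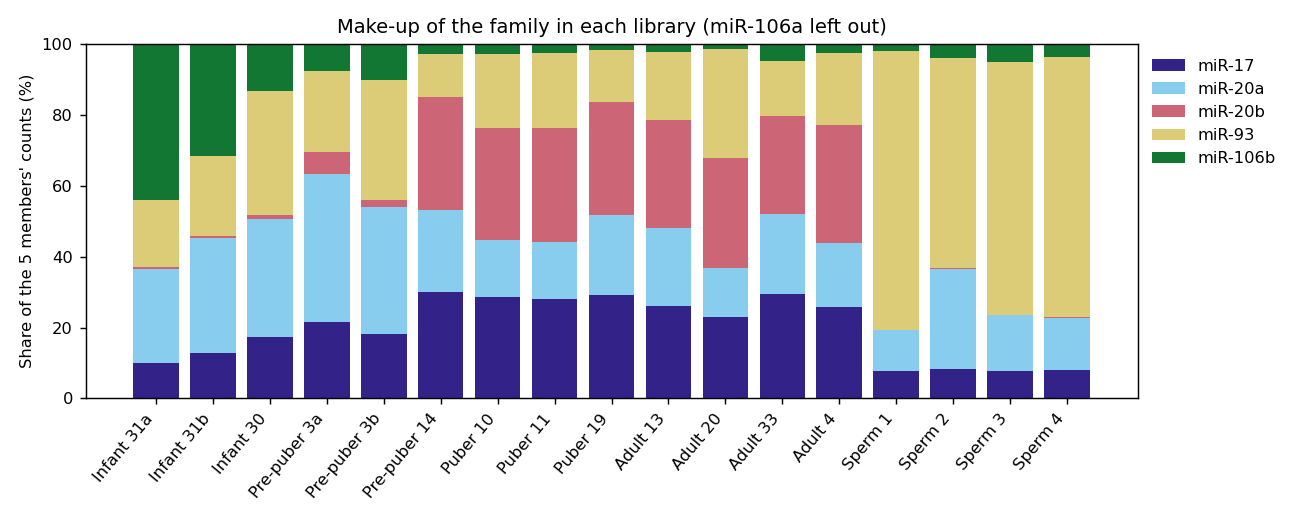
Share of the summed counts of 5 members (vertical axis, %) held by each member in each of the 17 libraries; miR-106a is left out because its counts nearly equal those of miR-17. miR-106b averages 29.7% in Infant and 2.72% in Adult, miR-20b takes 30.5% on average in Adult, and miR-93 takes 70.7% on average in Sperm.

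Over the 13 testis libraries, log2 levels (scaled CPM plus 1) of miR-17 correlated with those of miR-106a at a Pearson r of 1.00, of miR-20b at 0.99, of miR-93 at 0.93 and of miR-20a at 0.93. miR-106b correlated with the other members at -0.51 to -0.18. These correlations describe libraries that share their stage and differ in depth by stage. Those of miR-17 and miR-106a also carry the doubt about their counts given above. Among the 178 other tested miRNAs, those most like miR-17 were miR-8908g (r = 0.96), miR-8908k (0.95) and miR-8908j (0.95). The same 3 were most like miR-20b, at 0.96 each. Those most like miR-106b were miR-15a (0.91), miR-30e (0.91) and miR-374a (0.82), each over the 13 testis libraries.

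The other cluster miRNAs in the table, miR-18a of miR-17-92 and miR-18b of miR-106a-363, have a seed that differs from that of the miR-17 family. Both were scarcer than miR-17 and miR-20a in every library. miR-18a stood at 35.3, 16.3, 60.7 and 30.6 scaled CPM in Adult 13, 20, 33 and 4, against 14.9, 7.04 and 14.5 in Infant 31a, 31b and 30, a log2 fold change of 1.56 ± 0.48 (edgeR adjusted p = 0.0158). miR-18b stood at 4.95, 2.40, 11.1 and 4.44 scaled CPM in Adult, against 0.901, 0.716 and 0.626 in Infant, a log2 fold change of 2.95 ± 0.86 (edgeR adjusted p = 0.0125) that rested on 16 counts over the 3 Infant libraries. Without Infant 31b (1.32) or Adult 33 (1.19), the call of miR-18a was lost, and with predicted hairpins included in the fit its log2 fold change was -0.072. No direction is given for miR-18a in Adult.

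Between Sperm and Adult testis miR-18a rose by 3.29 ± 0.55 on the log2 scale (edgeR adjusted p = 3.1e-07), with 227, 392, 223 and 200 scaled CPM in Sperm 1 to 4 against 27.2, 11.0, 41.2 and 26.4 in Adult 13, 20, 33 and 4. It was 2.48 without Adult 20, 2.61 with DESeq2, 2.24 with predicted hairpins included and 1.57 without scaling (adjusted p = 0.0166), each still called. miR-18b had 44 counts over the Sperm libraries and 135 over the Adult libraries, and its log2 fold change of 1.28 ± 0.50 (edgeR adjusted p = 0.0154) was lost without scaling, where it was -0.47, and when any of Adult 13, Adult 20, Sperm 1 or Sperm 3 was left out. No direction is given for miR-18b in Sperm. Relative to miR-18a, miR-18b stood at 0.0431 to 0.102 in Infant, 0.140 to 0.183 in Adult and 0.0167 to 0.0608 in Sperm. Of these 3 groups Adult was highest, as for miR-20b over miR-20a. The Infant and Sperm ranges overlapped, which those of miR-20b over miR-20a did not. In Pre-puber the ratio of miR-18b to miR-18a ran from 0.0132 to 0.196, and in Puber from 0.149 to 0.27. Its mean on the log2 scale was higher in Puber (-2.36) than in Adult (-2.67). The miR-18b ratios rest on few counts, 16 in Infant and 44 in Sperm, and were not tested.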

How the data were processed

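Small RNA was sequenced in 13 testis and 4 Sperm libraries. Per the submitters' processing notes, reads were trimmed with Trimmomatic and the build was EquCab3.0. The aligner, counter and annotation are not given in the sources used here. Whole-number read counts and RPM per library were deposited, per the file headers and values. The deposited RPM equalled the count divided by the column total, on the RPM scale, within 0.005. Columns were matched to libraries by title number, and Adult 4 and Sperm 4 by an inferred column prefix. The entry with the highest summed count was kept per mature name.

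Counts of annotated miRNAs were tested with edgeR 4.0.16 in R 4.3.3 (filterByExpr by group, TMM, quasi-likelihood F tests, Benjamini-Hochberg over all tested), in 1 fit of 13 testis libraries (184 miRNAs) and 1 of 8 Sperm and Adult libraries (162). Standard errors derive from the F statistic and are approximate. Ratios were tested by exact permutation in Python 3.11.15. Alternatives used limma 3.58.1 and DESeq2 1.42.0. The scripts were tested on simulated data. Named are all members, their cluster miRNAs in the table, the 3 miRNAs most correlated with 1 member per cluster, and the 3 most abundant hairpins with the seed. Members, lists and tests were chosen with earlier results of these data known.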

Additional observations from a re-analysis of the deposited data

Results flagged for a closer look

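Among the 22 groups of 4 libraries checked for a library far from the others, 4 had one. Chance gives about 1 in 20 among independent groups, and these are not independent: miR-17 and miR-106a had nearly the same counts, and 3 of the 4 were Adult 33. So the number is not to be set against chance. In Adult 33, miR-17 stood at 3791, miR-106a at 3519 and miR-106b at 619.4 scaled CPM, each above the other 3 Adult libraries. In Sperm 2, miR-106b stood at 1030 scaled CPM, above the other 3 Sperm libraries.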

How the results depend on the processing

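The 10 ratio results kept their direction in all 100 alternatives. Of 756 alternatives for member fold changes, 705 kept direction and side of the threshold, 12 lost the call, 14 gained one and 25 changed sign. With libraries of a shared title number summed, the 4 called Adult against Infant ratio differences were 5.892, -2.474, 8.367 and 1.615, with adjusted p = 0.0833 each by exact permutation test, because fewer libraries allow no smaller value. Leaving out 1 library gave 5.844 to 6.489, -3.287 to -2.269, 8.113 to 9.776 and 1.606 to 1.838, in the order miR-20b over miR-20a, miR-106b over miR-20a, miR-20b over miR-106b and miR-17 over miR-20a. For Sperm against Adult it gave -10.01 to -9.391 for miR-20b over miR-20a, -10.81 to -9.84 for miR-20b over miR-106b and -1.703 to -1.295 for miR-17 over miR-20a.

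Members called between Pre-puber and Infant numbered 3 with these groups fitted alone, beside 26 of 168 miRNAs tested. Between Puber and Pre-puber they numbered 2 with all entries in the fit, beside 198 of 916 entries, and 0 to 3 when 1 library was left out, beside 0 to 30 miRNAs. Between Sperm and Adult they numbered 2 with all entries in the fit, beside 507 of 783, and 2 to 4 when 1 library was left out, beside 130 to 137. The 2 was without Adult 20, beside 134 of 170. Cluster miRNAs called, 2 in each comparison, numbered 0 between Adult and Infant with all entries in the fit and 1 to 2 when 1 library was left out. Between Sperm and Adult they numbered 1 without scaling, with upper-quartile scaling, with DESeq2, with no filter and with all entries, and 1 to 2 when 1 library was left out.

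Over the alternatives that kept all libraries, miR-20b stayed called, at 4.85 to 7.15 in Pre-puber against Infant, 6.33 to 8.40 in Puber against Infant, 6.14 to 8.77 in Adult against Infant and -9.61 to -7.99 in Sperm against Adult. Signs changed mostly where no call was made. With all entries in the fit, log2 fold changes of Puber against Pre-puber were -0.89 for miR-17, -0.90 for miR-106a, -0.22 for miR-20b and -1.20 for miR-93. Those of Adult against Puber were -0.20 for miR-17, -0.22 for miR-106a, -0.027 for miR-20a and -0.19 for miR-20b. That of miR-18a in Adult against Infant was -0.072 and that of miR-18b in Sperm against Adult was -0.030. In that fit miR-20a and miR-93 also lost their calls in Puber against Infant (0.21 and 0.53) and Adult against Infant (0.18 and 0.61), and the median of all entries was 5.64 in Adult against Infant. Without scaling, miR-20a was 0.21 in Puber against Pre-puber and -0.16 in Sperm against Adult, miR-106b was 0.25 in Adult against Infant and miR-18b was -0.47 in Sperm against Adult. With DESeq2, miR-20a was 0.094 in Puber against Pre-puber. Leaving out 1 library gave miR-20a -0.42 to 0.45 in Puber against Pre-puber. It gave miR-17 -0.083 to 0.26, miR-106a -0.10 to 0.23, miR-106b -0.0057 to 0.74 and miR-20b -0.045 to 0.32 in Adult against Puber. In Sperm against Adult it gave miR-17 -0.70 to 0.17 and miR-106a -0.69 to 0.17.

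Without scaling, the split of higher against lower calls over all miRNAs was 36 to 5 in place of 29 to 15 for Pre-puber against Infant, and 56 to 11 in place of 39 to 28 for Puber against Infant. The causes of these changes were not tested. Counts of miR-20b (39) and miR-18b (44) in Sperm limit their precision. No paired analysis was possible because the groups compared share at most 1 title number.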
